A study of Homo sapiens with 6 samples.

Results

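The TRIM (tripartite motif) genes were described in Cal27-shGRK2 cells and in Cal27 cells. Members were the rows of the deposited gene table whose symbol was TRIM followed by a number and at most 1 letter, with no condition on expression. This gave 45 of the 18678 genes in the table. Of these, 41 averaged 1 FPKM or more across the libraries and were tested. TRIM9, TRIM36, TRIM46 and TRIM73 lay under that level and are given as values only.

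Cal27-shGRK2 is the human tongue squamous carcinoma line Cal27 with a short hairpin RNA against GRK2, a kinase of activated G protein-coupled receptors, and Cal27 is the established line itself. Both were grown in medium with serum and were collected while still subconfluent. The labels give 3 libraries per group, numbered 0, 1 and 2. The labels name neither a control hairpin in the Cal27 cells nor the number of hairpins or clones, so effects of the GRK2 loss and of carrying a hairpin cannot be told apart. Cal27-shGRK2 columns 0 and 1 were identical in all 18678 genes and were counted as 1 sample (the shared library below), which leaves 2 Cal27-shGRK2 and 3 Cal27 libraries. Separate cultures are not mentioned, so the p-values rest on the spread between these libraries, which may be technical.

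TRIM proteins carry a RING finger, 1 or more B-boxes and a coiled coil, and most act as ubiquitin ligases. They are grouped by what follows the coiled coil, most often a SPRY domain that binds the target. Many are induced by interferon, through a DNA element called the ISRE (interferon-stimulated response element), and act against viruses as restriction factors or as switches of RNA and DNA sensing. Others have roles outside immunity, in transcription, the cytoskeleton, muscle and keratinocytes. The interferon-induced list used here held TRIM5, TRIM14, TRIM21, TRIM22, TRIM25, TRIM26, TRIM34, TRIM38, TRIM56 and TRIM69, and the 35 remaining members are called the other TRIM genes.

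The ISRE is the element through which interferon reaches many of its target genes, so its matches in the promoters of the list are shown first. The motif searched was GAAA, any 2 bases and GAAA again, on both strands, in windows of 250 bases before and 50 bases after each RefSeq start (GRCh38.p14). Of the 45 members, 32 had a promoter in the RefSeq table, and 5 of the 11 members that changed (TRIM22, TRIM29, TRIM55, TRIM8 and TRIM11) were not analysed for motifs here. At least 1 match lay in 6 of the 9 interferon-induced members with a promoter (66.7%) and in 3 of 23 other members (13.0%), against 4.38% of all 27305 genes with a promoter. Genes with several listed starts had more windows in which to match. The 3 other members with a match were TRIM44, TRIM16 and TRIM2, and of these only TRIM44 was among the members that changed. The 6 interferon-induced members follow, with TRIM44. Each is printed 5′ to 3′ along the gene's strand, with the matched letters in capitals. A match on the opposite strand reads TTTC, any 2 bases and TTTC.
TRIM21: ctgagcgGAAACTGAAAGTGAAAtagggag
TRIM5: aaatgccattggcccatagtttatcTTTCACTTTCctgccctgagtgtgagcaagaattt
TRIM69: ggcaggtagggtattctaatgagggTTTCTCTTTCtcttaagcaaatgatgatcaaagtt
TRIM14: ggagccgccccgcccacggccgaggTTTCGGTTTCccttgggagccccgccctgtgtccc
TRIM26: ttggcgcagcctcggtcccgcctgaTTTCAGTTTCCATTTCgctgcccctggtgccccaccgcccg
TRIM34: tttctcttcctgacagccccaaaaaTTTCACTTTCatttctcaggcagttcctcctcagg
TRIM44: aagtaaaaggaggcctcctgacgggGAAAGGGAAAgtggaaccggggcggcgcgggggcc

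The windows lay at chr11:4393663-4393692 (TRIM21, minus strand), chr11:5685067-5685126 (TRIM5, minus strand), chr15:44736441-44736500 (TRIM69, plus strand), chr9:98119214-98119273 (TRIM14, minus strand), chr6:30213560-30213625 (TRIM26, minus strand), chr11:5624886-5624945 (TRIM34, plus strand) and chr11:35662715-35662774 (TRIM44, plus strand). The match began 17 bases after the start in TRIM21, and 26, 27, 35, 62, 90 and 194 bases before it in TRIM14, TRIM5, TRIM44, TRIM69, TRIM34 and TRIM26. TRIM21 and TRIM26 held 2 overlapping matches each. No match was found in the promoters of TRIM25, TRIM38 and TRIM56, nor in that of TRIM6. A match describes letters only and does not show binding.

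The targeted gene was lower in both Cal27-shGRK2 libraries. GRK2 (listed as ADRBK1) had 17.3 and 16.6 FPKM in Cal27-shGRK2 and 55.3, 59.4 and 55.8 FPKM in Cal27, a 3.35-fold lower mean (log2 fold change -1.69 ± 0.06, limma adjusted p = 3.8e-11). FPKM is a level per transcript length and library size. For 2 against 3 libraries an exact two-sided permutation test cannot go below p = 0.1, its value here, so genes are tested below with limma, fitted over all 13377 genes that reach the FPKM filter. Per library, the table's FPKM added up to 590163 to 644832, and depth in reads is unknown. Of 9 squamous epithelial markers all were present, with a summed level of 1508 and 1533 FPKM in Cal27-shGRK2 and of 3299 to 3659 FPKM in Cal27. Of 6 fibroblast markers 4 were listed, with sums of 4.38 and 4.46 FPKM in Cal27-shGRK2 and 4.35 to 4.71 FPKM in Cal27. Of 6 blood markers only CD14 was listed, with 0.527 and 0.732 FPKM in Cal27-shGRK2 and 0.706 to 1.15 FPKM in Cal27. Of 4 endothelial markers only CDH5 was listed, with 6.80 and 7.01 FPKM in Cal27-shGRK2 and 3.50 to 3.97 FPKM in Cal27.

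Cal27 cells expressed a broad set of TRIM genes. Over the 5 libraries the members' mean levels ran from 0.366 FPKM (TRIM46) to 262 FPKM (TRIM28), with a median of 8.18 FPKM. There were 18 members at 10 FPKM or more, 23 between 1 and 10 FPKM and 4 below 1 FPKM, and 0 members were listed at 0 in any library. Family genes with no deposited row, such as TRIM31 and TRIM58, are outside these counts, so the levels describe listed genes only. Whether genes without a row were expressed was not tested. The family's summed level was 997 and 1042 FPKM in Cal27-shGRK2 and 1029, 1104 and 1025 FPKM in Cal27, and these ranges overlap. TRIM28, the corepressor recruited by KRAB zinc-finger proteins, was the most abundant. It had 248 and 259 FPKM in Cal27-shGRK2 and 258, 285 and 260 FPKM in Cal27, 24.9% and 25.4% of the family's sum. Its log2 fold change of -0.08 ± 0.06 (SE) did not pass (limma adjusted p = 0.39). TRIM16, which lacks a RING finger and is known from keratinocyte differentiation, came next, followed by TRIM44, TRIM47 and TRIM29.

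**Figure D1:**
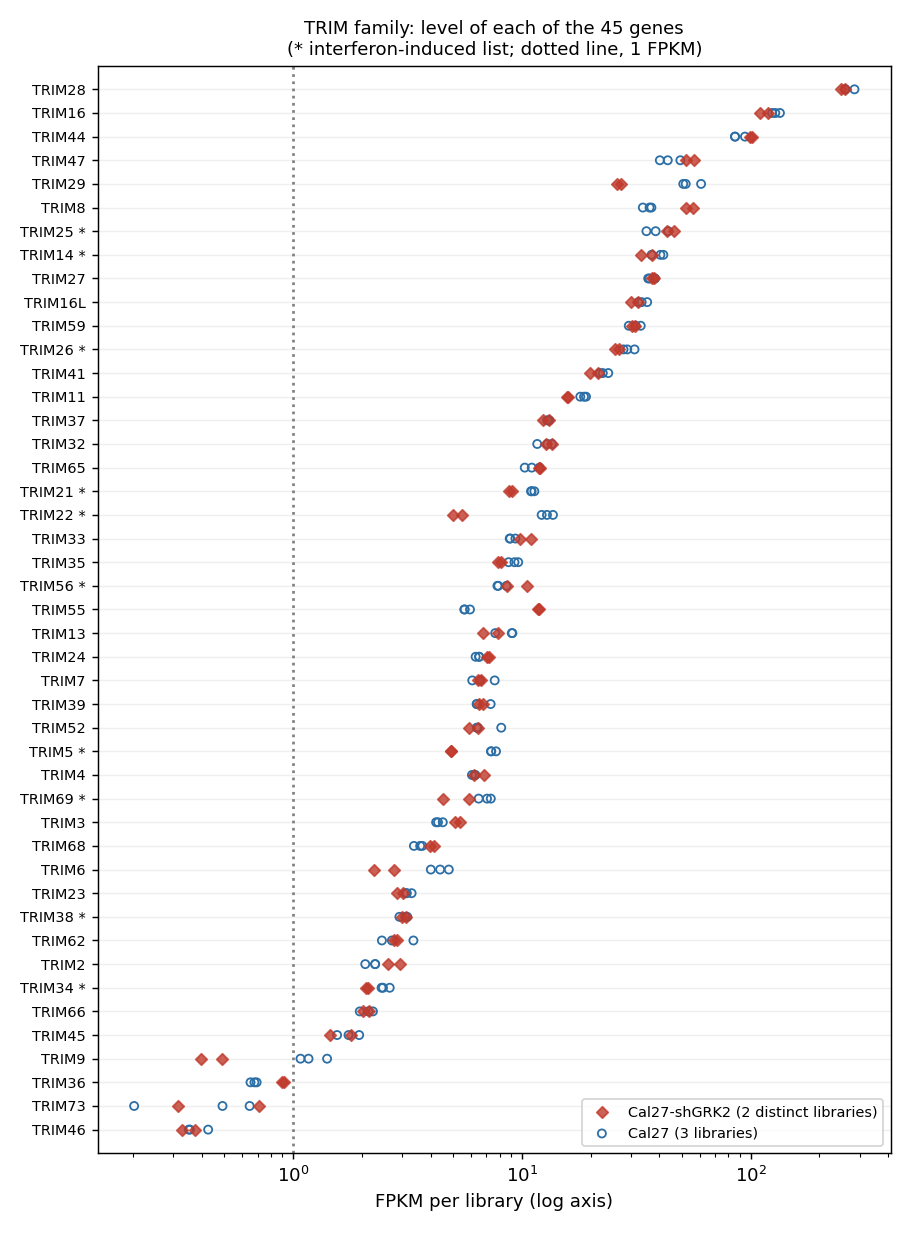
FPKM of each of the 45 TRIM genes in each library on a log axis, ordered by mean level, with Cal27-shGRK2 libraries as red diamonds and Cal27 libraries as open blue circles. TRIM28 is highest at a mean of 262 FPKM, 4 genes average under 1 FPKM (dotted line), and the gap between groups is widest for TRIM9, TRIM22, TRIM55 and TRIM29.

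In Cal27-shGRK2 cells TRIM22, TRIM29, TRIM6, TRIM5, TRIM69, TRIM21 and TRIM11 fell and TRIM55, TRIM8, TRIM47 and TRIM44 rose. These are 11 of the 41 tested members (26.8%) past an adjusted p of 0.05 in limma, against 29.6% of all genes tested, so the family as a whole was called about as often as any gene. The 7 falls compare with 14.6% of all genes called lower and the 4 rises with 15.0% called higher. Scaling the libraries to equal totals (TPM) gave 6 lower and 8 higher members, and over all genes 1512 lower and 2850 higher against 1949 lower and 2008 higher with FPKM as deposited. The median log2 fold change of the tested members was -0.03, and that of all genes -0.01; scaled to equal totals these became 0.02 and 0.05. In bulk RNA, fewer cells that express a gene and less RNA per cell cannot be told apart. Values of the 2 groups stood wholly apart in 23 tested members, 13 lower and 10 higher, against 53.3% of all tested genes.

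**Figure D2:**
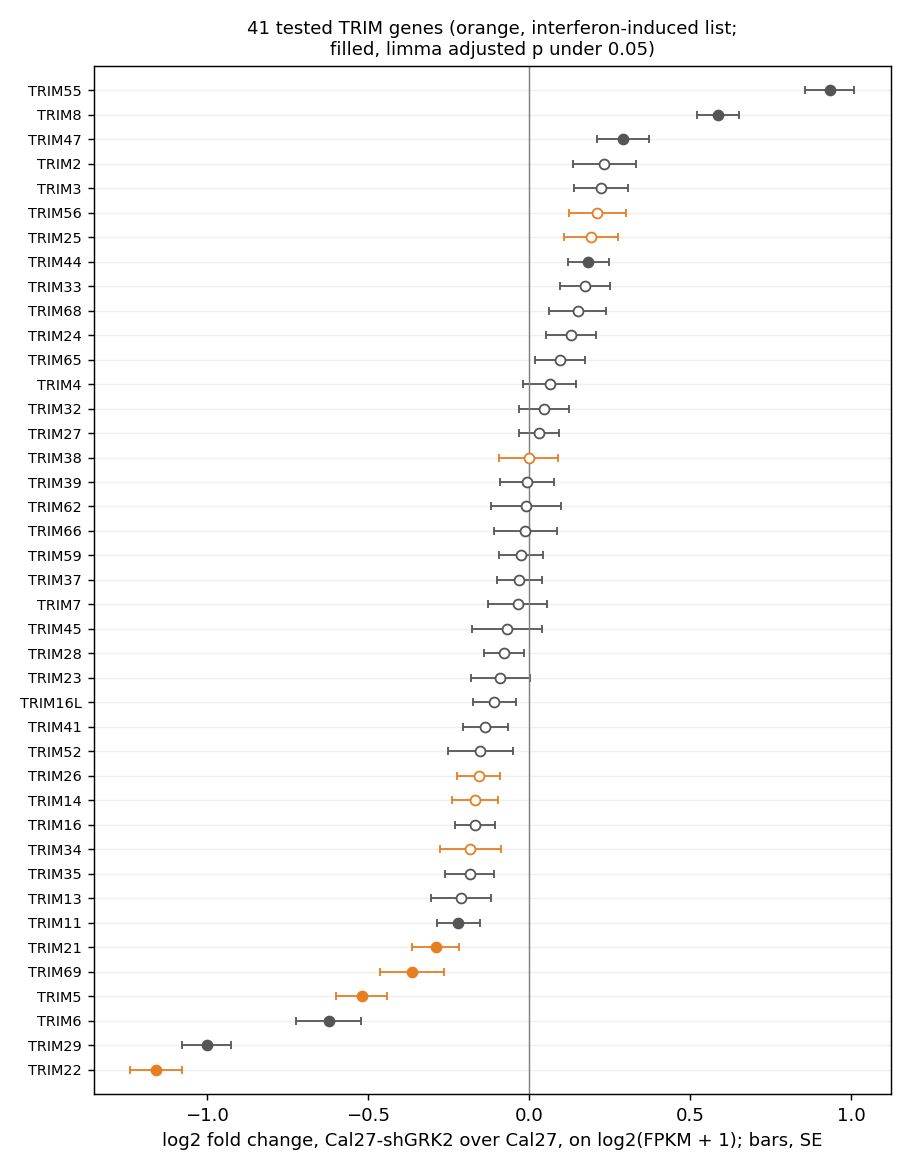
Log2 fold change of Cal27-shGRK2 over Cal27 on log2(FPKM + 1) for the 41 tested TRIM genes, with SE bars; filled points passed the limma threshold and orange marks the interferon-induced list. TRIM22 (-1.16) and TRIM29 (-1.0) are lowest, TRIM55 (0.93) and TRIM8 (0.59) highest, and 32 of 41 genes lie between -0.25 and 0.25.

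Among the antiviral members, TRIM22 fell most. TRIM22, an interferon-induced repressor of viral transcription, had 5.01 and 5.49 FPKM in Cal27-shGRK2 and 12.9, 12.2 and 13.7 FPKM in Cal27. Both Cal27-shGRK2 libraries were below every Cal27 library, with a mean of 5.25 ± 0.34 FPKM (SD, n = 2) against 12.9 ± 0.74 FPKM (SD, n = 3), which is 2.46-fold lower. Its log2 fold change came to -1.16 ± 0.08 (SE, limma adjusted p = 3.1e-08). TRIM5, the restriction factor that binds the capsid of incoming retroviruses, had 4.91 FPKM in each Cal27-shGRK2 library and 7.72, 7.34 and 7.36 FPKM in Cal27. The groups did not overlap, and TRIM5 was 1.52-fold lower in Cal27-shGRK2 (log2 fold change -0.52 ± 0.08, limma adjusted p = 1.3e-04). TRIM5 and TRIM22 overlap on opposite strands of chromosome 11 in the annotation, and the strand setting of the authors' counting is not given, so exchange of reads between them was not tested.

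TRIM21, a cytosolic receptor for antibodies bound to virus, fell by less. It had 8.76 and 9.09 FPKM in Cal27-shGRK2 and 11.05, 11.35 and 10.98 FPKM in Cal27, a 1.25-fold lower mean with no overlap (log2 fold change -0.29 ± 0.07, limma adjusted p = 0.0067). Without the shared Cal27-shGRK2 library the call was lost (limma adjusted p = 0.068). TRIM69, which binds microtubules and restricts some RNA viruses, had 4.54 and 5.90 FPKM in Cal27-shGRK2 and 7.05, 7.32 and 6.48 FPKM in Cal27. Its Cal27-shGRK2 libraries differed more from each other than those of the other called members of the list, and both were below Cal27. The log2 fold change was -0.36 ± 0.10 (limma adjusted p = 0.012). Without the shared Cal27-shGRK2 library it was -0.20 and did not pass (limma adjusted p = 0.22).

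The 6 remaining interferon-induced members did not pass. TRIM25, the ligase that ubiquitinates the RNA sensor RIG-I, had 43.0 and 46.3 FPKM in Cal27-shGRK2 and 35.1, 43.7 and 38.5 FPKM in Cal27. The groups overlapped, and the log2 fold change was 0.19 ± 0.08 (limma adjusted p = 0.10). Without Cal27 replicate 1, the highest Cal27 library, it passed at 0.27 (limma adjusted p = 0.0087). Without Cal27 replicate 0, the lowest, it was 0.12 and did not pass (limma adjusted p = 0.29). TRIM56, which promotes signalling from DNA and double-stranded RNA sensors, had 8.64 and 10.5 FPKM in Cal27-shGRK2 and 7.90, 8.58 and 7.83 FPKM in Cal27. Both Cal27-shGRK2 libraries were above Cal27, 1 of them only just, and the log2 fold change was 0.21 ± 0.09 (limma adjusted p = 0.085). Without the shared Cal27-shGRK2 library, which is the one near Cal27, the log2 fold change was 0.34. Without Cal27-shGRK2 replicate 2 it was 0.08, so the size of the difference depended on which library was kept. The means of TRIM25 and TRIM56 were thus higher in Cal27-shGRK2, but neither passed. Other members tied to such signalling and described below went several ways. TRIM14 and TRIM26 had lower means but did not pass either (log2 fold changes -0.17 and -0.16), and TRIM6 was called lower (-0.62). TRIM38 and TRIM8, tied to inflammatory and NF-κB signalling, stood at -0.0004 (not called) and 0.59 (called higher).

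TRIM14, an adaptor of the mitochondrial signalling protein MAVS, had 33.3 and 37.0 FPKM in Cal27-shGRK2 and 40.4, 41.6 and 36.9 FPKM in Cal27. TRIM26, which has been tied to control of IRF3, had 26.7 and 25.6 FPKM in Cal27-shGRK2 and 27.8, 31.1 and 28.9 FPKM in Cal27. The values of TRIM14 overlapped by a narrow margin and those of TRIM26 did not, but neither passed (log2 fold changes -0.17 and -0.16, limma adjusted p = 0.094 and 0.10). TRIM34, a close relative of TRIM5, had 2.08 and 2.13 FPKM in Cal27-shGRK2 and 2.65, 2.47 and 2.44 FPKM in Cal27 (log2 fold change -0.18 ± 0.10, limma adjusted p = 0.17). TRIM38, a brake on inflammatory receptor signalling, had 3.13 and 2.99 FPKM in Cal27-shGRK2 and 3.16, 2.92 and 3.10 FPKM in Cal27. Its difference was -0.0004 on the log2 scale with an SE of 0.09.

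**Figure D3:**
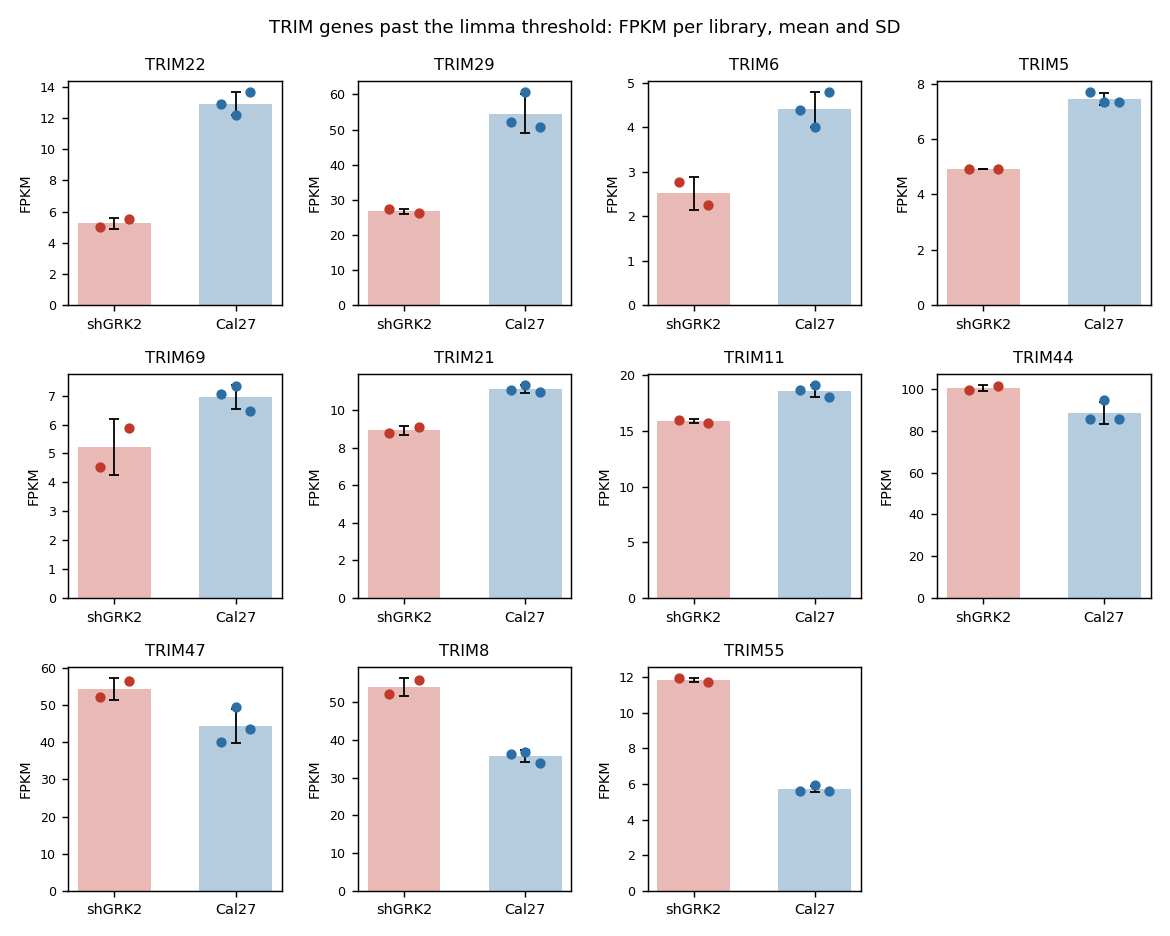
FPKM of the 11 TRIM genes past the limma threshold, 1 panel each, with points for libraries, bars for means and error bars for SD (2 Cal27-shGRK2 libraries in red, 3 Cal27 libraries in blue). In every panel the red points lie wholly above or below the blue points; TRIM22 and TRIM29 show the widest gap among the falls and TRIM55 among the rises.

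Set side by side, 4 of the 10 interferon-induced members fell and 0 rose, and 3 of the 31 other tested members fell and 4 rose. Of all genes tested, 14.6% fell and 15.0% rose. At an unadjusted p under 0.05 in limma, which 39.3% of all genes reached (19.8% higher, 19.5% lower), stood 8 of the 10 interferon-induced members, 2 higher (TRIM25 and TRIM56) and 6 lower (TRIM14, TRIM26, TRIM21, TRIM22, TRIM5 and TRIM69). With libraries scaled to equal totals TRIM25 and TRIM56 both passed as higher (log2 fold changes 0.25 and 0.27, limma adjusted p = 0.021 and 0.026). The median log2 fold change was -0.17 in the interferon-induced list, -0.01 in the other members and -0.01 in all genes. The interferon-induced list summed to 140 and 150.0 FPKM in Cal27-shGRK2 and to 156, 169 and 156 FPKM in Cal27, with no overlap. Most of that sum came from TRIM25, TRIM14 and TRIM26, which did not pass. With a wider list that added TRIM6 and TRIM35 (TRIM31 and TRIM58 had no row), 5 of 12 members fell and 0 rose. These are descriptions of a list chosen with results of these data known, and the difference between the lists was not tested.

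Outside the family, most of the interferon pathway fell. Among 45 genes of interferon signalling and interferon-stimulated genes, limma called 33 lower and 1 higher and left 11 uncalled. Their median log2 fold change was -0.63. Of all genes tested, limma called 14.6% lower and 15.0% higher. Among the 45, the 4 largest changes on log2(FPKM + 1) were in IFI6 (-3.04), OASL (-2.38), IFI27 (-2.26) and IFI44L (-2.05). The order differs for ratios of mean FPKM. IFI44L, at 0.0951 FPKM in Cal27-shGRK2, was 37.6-fold lower and IFI6 8.59-fold, and IRF9 (5.08-fold) exceeded IFI27 (4.85-fold). Among 11 genes of RNA and DNA sensing that TRIM proteins act on, 6 were called lower, 1 was called higher and 4 were not called (median -0.24). TMEM173, the adaptor STING, had 2.98 and 3.45 FPKM in Cal27-shGRK2 and 5.22, 6.15 and 5.40 FPKM in Cal27 (log2 fold change -0.64). DDX58, the sensor RIG-I that TRIM25 ubiquitinates, had 7.28 and 8.68 FPKM in Cal27-shGRK2 and 13.6, 12.6 and 12.3 FPKM in Cal27 (-0.63). The log2 fold change was -0.60 for DHX58, a related helicase, and -0.39 for the kinase TBK1. RIG-I thus fell, and its ligase TRIM25 did not pass.

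**Figure D4:**
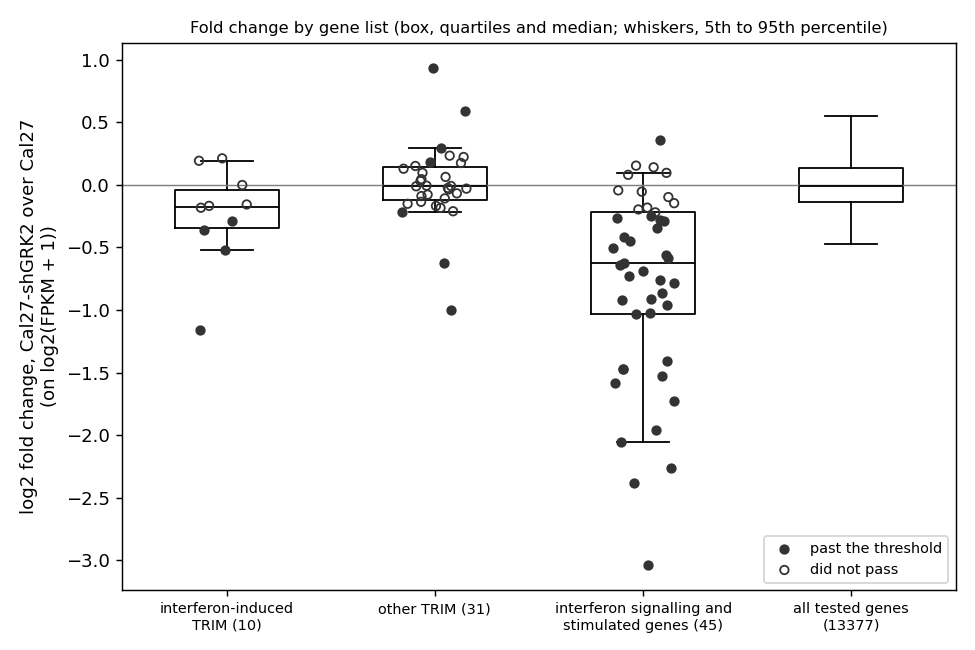
Log2 fold change of Cal27-shGRK2 over Cal27 by list, with 1 point per gene (filled, past the limma threshold), boxes for quartiles and median, and whiskers for the 5th and 95th percentiles. The medians are -0.17 for 10 interferon-induced TRIM genes, -0.01 for 31 other TRIM genes, -0.63 for 45 interferon pathway genes and -0.01 for all 13377 genes.

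Among the tested members outside the interferon-induced list TRIM29 had the largest fall. It lacks a RING finger and is abundant in squamous epithelium. It had 27.3 and 26.2 FPKM in Cal27-shGRK2 and 52.1, 60.8 and 50.8 FPKM in Cal27. Its mean of 26.7 ± 0.77 FPKM in Cal27-shGRK2 against 54.6 ± 5.44 FPKM in Cal27 was 2.04-fold lower (log2 fold change -1.0 ± 0.08, limma adjusted p = 1.2e-07). The squamous markers moved with it, as 7 of 9 were lower in Cal27-shGRK2 and CDH1 and EPCAM were higher, and their part in the TRIM29 result was not tested. TRIM16, named above for its tie to keratinocytes, had 110 and 119 FPKM in Cal27-shGRK2 and 128, 134 and 124 FPKM in Cal27. These did not overlap, but the log2 fold change of -0.17 ± 0.06 did not pass (limma adjusted p = 0.058). TRIM16 and TRIM16L are near copies, so the authors' software could have split their reads either way.

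TRIM6, which makes free ubiquitin chains that activate the kinase IKKε, had 2.78 and 2.25 FPKM in Cal27-shGRK2 and 4.40, 4.01 and 4.80 FPKM in Cal27. Both Cal27-shGRK2 libraries were lower, by 1.75-fold in the mean (log2 fold change -0.62 ± 0.10, limma adjusted p = 2.5e-04). The annotation also holds a TRIM6-TRIM34 readthrough transcript that shares exons with both genes, so their split is uncertain. TRIM11, a ligase that clears misfolded proteins, had 15.98 and 15.72 FPKM in Cal27-shGRK2 and 18.72, 19.09 and 18.02 FPKM in Cal27. The groups did not overlap, and the log2 fold change was -0.22 ± 0.07 (limma adjusted p = 0.023). That call was lost without either Cal27-shGRK2 library (limma adjusted p = 0.093 without the shared one and 0.12 without replicate 2) and on scaling to equal totals (0.053).

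Of the 4 members that rose, TRIM55 had the largest change. TRIM55, the muscle RING finger protein MuRF2 of the sarcomere, had 11.9 and 11.8 FPKM in Cal27-shGRK2 and 5.61, 5.94 and 5.63 FPKM in Cal27. The mean was 11.8 ± 0.13 FPKM against 5.73 ± 0.19 FPKM, 2.07 times as high in Cal27-shGRK2 (log2 fold change 0.93 ± 0.08, limma adjusted p = 2.0e-07). TRIM8, a regulator of NF-κB and p53 signalling, had 52.3 and 55.8 FPKM in Cal27-shGRK2 and 36.2, 36.9 and 33.8 FPKM in Cal27. Its log2 fold change was 0.59 ± 0.07 (limma adjusted p = 5.4e-06), with a mean 1.52 times as high.

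TRIM47, a SPRY-domain ligase, and TRIM44 rose by less. TRIM47 had 52.3 and 56.5 FPKM in Cal27-shGRK2 and 40.1, 49.4 and 43.5 FPKM in Cal27 (log2 fold change 0.29 ± 0.08, limma adjusted p = 0.014). Its lower Cal27-shGRK2 library stood close above the highest Cal27 library, and the call was lost without Cal27-shGRK2 replicate 2 (limma adjusted p = 0.15). TRIM47 also lost its call with limma without trend and robust fitting (limma adjusted p = 0.065). TRIM44, which has a ubiquitin-protease-type zinc finger in place of a RING finger, had 99.6 and 102 FPKM in Cal27-shGRK2 and 85.5, 94.5 and 85.6 FPKM in Cal27. Its log2 fold change was 0.18 ± 0.06 (limma adjusted p = 0.042). The call was lost without Cal27 replicate 0 or 2 (limma adjusted p = 0.13 and 0.15) and without the shared Cal27-shGRK2 library or replicate 2 (0.13 and 0.19). It was also lost with no filter (0.066) and with limma without trend and robust fitting (0.10), so 6 of 14 alternatives ended it. TRIM3, an NHL-domain ligase known from neurons, had 5.39 and 5.10 FPKM in Cal27-shGRK2 and 4.31, 4.52 and 4.22 FPKM in Cal27. Those groups did not overlap, but its log2 fold change of 0.22 ± 0.08 did not pass (limma adjusted p = 0.061).

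By domain after the coiled coil, each member was counted in 1 class only, whatever further domains it has. Of the 23 members placed in the SPRY class, 6 fell and 1 rose, with a median log2 fold change of -0.14. Together that is 30.4% of the class, near the 29.6% of all genes, of which 14.6% fell and 15.0% rose. The 3 tested NHL members and the 4 with a PHD finger and bromodomain, the transcriptional cofactors TRIM24, TRIM28, TRIM33 and TRIM66, gave 0 calls in limma at the adjusted threshold, with medians of 0.22 and 0.06. At an unadjusted p under 0.05 stood 2 of the 3 NHL members (TRIM3 and TRIM2) and 1 of the 4 cofactors (TRIM33), all higher, against 19.8% of all genes; these classes are too small to read a share from. The 4 members with the microtubule-binding COS box were TRIM9, TRIM36, TRIM46 and TRIM55, and TRIM55 alone was expressed highly enough to be tested. The 10 tested members with another domain or none had 1 fall and 2 rises and a median of -0.05. Of the 10 interferon-induced members all but TRIM56 have a SPRY domain, so the domain and the list overlap.

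The 21 tested members not named singly had 0 calls in limma at the adjusted threshold. Their adjusted p ran from 0.088 to 0.97, and 4 of them (TRIM33, TRIM35, TRIM13 and TRIM2) had an unadjusted p under 0.05, against 39.3% of all genes. Since members that passed were named, this share is low by that choice. Their mean levels ran from 1.70 to 37.0 FPKM and their log2 fold changes from -0.21 (TRIM13) to 0.23 (TRIM2). In 7 of the 21 every Cal27-shGRK2 library lay on one side of Cal27, above it in 4 and below it in 3, against 53.3% of all tested genes.

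By position, 10 of the 45 members lie on chromosome 11, and 5 of the 7 falls and 1 of the 4 rises were among them. Of all genes tested, 14.6% fell and 15.0% rose, and no share was computed for chromosome 11 alone. On its short arm (hg38, GENCODE version 29) stand TRIM21 from 4384897 to 4393696, TRIM6 from 5596109 to 5612958, TRIM34 from 5619764 to 5644398, TRIM5 from 5663557 to 5938619 and TRIM22 from 5689689 to 5737089. TRIM68, TRIM3 and TRIM66 lie in the same stretch. Of these 8 members, TRIM21, TRIM6, TRIM5 and TRIM22 fell and 0 rose. TRIM21, TRIM5 and TRIM22 are also on the interferon-induced list, so position and list overlap. Wholly within the stretch from 4384897 to 8682694 lie 15 other tested genes. Of these, 2 fell and 2 rose, with a median log2 fold change of -0.09. All 15 start at 6211335 or later, beyond the ends of TRIM21, TRIM6, TRIM22 and TRIM5. None of them thus lies between the members that fell. TRIM29, which fell, lies on the long arm of the same chromosome, from 120111275 to 120185529, and TRIM44, which rose, on the short arm from 35662805 to 35818007, outside that stretch.

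The 4 low members were not tested. TRIM9, a ligase of neuronal axon guidance, had 0.398 and 0.488 FPKM in Cal27-shGRK2 and 1.17, 1.41 and 1.08 FPKM in Cal27, with no overlap and a 2.75-fold lower mean. The authors' deposited table marks it as significant (log2 fold change -1.52, q = 6.1e-04). That table marks 9 of the 45 members, 3 higher and 6 lower, against 15.4% of all its genes. Of the 9, 8 are also called by limma, in the same direction, and TRIM9 is the other. Among the 11 members called by limma, it does not mark TRIM44, TRIM69 and TRIM11 (authors' q = 0.83, 0.20 and 0.15). With no filter TRIM9 passed here too (log2 fold change -0.62 ± 0.10, limma adjusted p = 0.0023). TRIM36, known from the acrosome and the cell cycle, had 0.918 and 0.898 FPKM in Cal27-shGRK2 and 0.679, 0.694 and 0.652 FPKM in Cal27, and did not pass with no filter (limma adjusted p = 0.16). TRIM46, a microtubule organiser of axons, and TRIM73 overlapped between the groups, at 0.327 to 0.426 FPKM and 0.202 to 0.714 FPKM over the 5 libraries.

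TRIM proteins listed under other names gave a mixed picture. PML (TRIM19), the organiser of nuclear bodies and itself interferon-induced, had 63.6 and 70.0 FPKM in Cal27-shGRK2 and 65.9, 74.2 and 64.3 FPKM in Cal27 (log2 fold change -0.03 ± 0.07, limma adjusted p = 0.81). Its groups overlapped. MID2 (TRIM1), a microtubule-binding ligase, fell, with 1.164 and 1.498 FPKM in Cal27-shGRK2 and 1.90, 2.14 and 2.02 FPKM in Cal27 (log2 fold change -0.38 ± 0.11, limma adjusted p = 0.015). It was not called without the shared Cal27-shGRK2 library. Its relative MID1 (TRIM18) had 20.8 and 19.1 FPKM in Cal27-shGRK2 and 16.4, 19.0 and 18.7 FPKM in Cal27, and did not pass, although its libraries just missed overlap (log2 fold change 0.14 ± 0.08, limma adjusted p = 0.20).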

How the data were processed

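The table was deposited as FPKM per library, with, per the file headers, the authors' FPKM per condition, log2 fold change, test score, p-values and q-values. The submitters' processing notes name the build hg38 and the tools Cuffdiff 2.2.1, TopHat2 2.1.0 and Bowtie2 2.2.6. Neither the annotation nor the strand setting is given in the sources used here. The authors' condition value equals the mean of the columns within a relative 0.001 for 99.89% of 13383 genes in Cal27, but for 2.71% in Cal27-shGRK2, where columns 0 and 1 are identical.

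A filter kept genes averaging 1 FPKM or more. The test, on log2(FPKM + 1), was limma 3.58.1 (R 4.3.3; trend, robust, two-sided, Benjamini-Hochberg over 13377 genes, threshold 0.05). This scale understates changes of low genes. In limma each gene's variance is drawn partly from that of all tested genes, so a p-value does not rest on that gene's own spread alone. Folds are ratios of mean FPKM. On simulated data for this comparison the test recovered most changes that were put in, but the share of false calls among its calls was above the nominal threshold. A second promoter motif that was searched is not reported here. IDs of 45 of 45 members matched GENCODE version 29. The members and lists were chosen with earlier results of these data known. Named are all called members, the interferon-induced list, the 5 most abundant, the 3 nearest the threshold, and the 4 most changed genes of each pathway list; the low members and TRIM proteins under other names were added after their values were seen or from a fixed list. Alternatives were another pseudocount (0.1), no filter or one of 5 FPKM, other scalings, plain limma, a replicate block and leaving out single libraries.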

Additional observations from a re-analysis of the deposited data

How the results depend on the processing

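TRIM22, TRIM29, TRIM55, TRIM8 and TRIM5 kept their direction and call in all 14 alternatives, and TRIM6 in the 13 in which it was tested. The count of TRIM genes called was 9 to 13 when single libraries were left out (2 to 5 higher, 5 to 8 lower), with 3 to 5 of the interferon-induced list and 5 to 8 of the others. Without Cal27-shGRK2 replicate 2, 2 TRIM genes were higher. For all genes the count was 2600 to 4028 (1218 to 2205 higher, 1088 to 1843 lower), lowest without the shared Cal27-shGRK2 library, for interferon pathway genes 29 to 35 and for sensing genes 5 to 7. Rescaling to a common total gave 8 higher TRIM genes, and the median of the other TRIM genes turned to 0.03. TRIM proteins under other names had 0 calls with a mean of at least 5 FPKM, where MID2 is under the filter, and 0 to 1 when a library was left out. A further Cal27-shGRK2 library computed from the authors' condition value, chosen after seeing the data, gave 18 calls (7 higher, 11 lower). Of these, 7 were of the interferon-induced list and 11 of the others. Over all genes this fit, which has more libraries, called 4780 (2487 higher, 2293 lower) against 3957 in the main fit. TRIM38, near 0, turned positive with a common total (0.0465), with median-of-ratios scaling (0.0048), and when Cal27 replicate 0 (0.0175) or 2 (0.0066) or Cal27-shGRK2 replicate 2 (0.0251) was left out, where single omissions ranged between -0.0259 and 0.0251; the cause was not tested. With the replicate number as a block, 12 TRIM genes and 3960 of all genes were called. TRIM69 was then lost (limma adjusted p = 0.065) and TRIM25 gained (0.0072). Same-numbered libraries correlated at 0.08 and 0.02, so the numbers are not taken as pairs. The median of the other TRIM genes also turned positive with the block (0.04), without Cal27 replicate 1 (0.04) and without the shared Cal27-shGRK2 library (0.0022). Depth is unknown, so no counting interval can be given for members of low FPKM.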
